A study of Mus musculus with 8 samples.

Results

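A set of 43 genes that work in germ cells and in meiosis, chosen by name, was followed in RNA-seq of mouse embryonic stem cells (ESCs). Each gene was found by its symbol as 1 row among 50903 genes. The 43 genes lie on 18 chromosomes, with 2 of them (*Tex11* and *Taf7l*) on the X chromosome. Both cell lines are derivatives of E14, a male mouse ESC line, and were grown in serum-free N2B27 medium with LIF and 2i, kinase inhibitors under which ESCs stay in a ground state. Each carries a Flag- and HA-tagged *Baz2a* transgene that was inserted with the piggyBac transposase and resists the siRNA. Cells of both lines were transfected with siRNA against endogenous *Baz2a* and collected after 3 days. The 4 libraries of ESC + F/H-BAZ2Ar WT express full-length BAZ2A, and the 4 libraries of ESC + F/H-BAZ2Ar ΔTAM express BAZ2A without its RNA-binding TAM domain. Each line goes back to a clone of a single cell, so the effect of the deletion and a difference between clones cannot be told apart. The labels do not say whether the 4 libraries of a line are separate cultures, so p-values measure only the spread between these libraries.

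In the mammalian germline, specification factors set cells aside in the early embryo. RNA-binding proteins and helicases then control germ cell mRNAs, and the piRNA machinery of the cytoplasmic nuage silences transposons. In meiosis, cohesins and axis proteins organize the chromosomes, the synaptonemal complex joins homologs, and recombination proteins repair programmed breaks. In somatic cells and ESCs many of these genes are held silent or low. Known layers of this repression are DNA methylation of CpG-rich promoters, H3K9 methylation and a noncanonical Polycomb complex with the sequence-specific factors MGA, MAX and E2F6. The comparison of ΔTAM with WT asks how RNA levels change when BAZ2A lacks its TAM domain.

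The deposited RPKM refer to the genomic span of a gene with its introns. Multiplied by the span in kb they give RPM, the reads per 1000000 of the library total, the scale used below. Between 6.68 M and 8.82 M reads per library lay on genes, out of library totals of 43.8 M to 58.1 M. These totals are inferred from the RPKM value of 1 read, and why genes hold so small a share of them is not stated in the sources used here. Reads carry no molecular identifiers, so read numbers speak for counting error only. *Baz2a* had a mean of 395.6 RPM in WT and 688.8 in ΔTAM, a log2 fold change of 0.80 that counts transgene and endogenous reads together. Of 5 ESC markers, *Pou5f1*, *Nanog* and *Zfp42* were not called and *Sox2* (-0.42) and *Esrrb* (-0.23) were lower on the log2 scale. Some genes from marker lists of other cell types also moved. Of 6 markers of 2-cell-like cells, 5 were tested and 5 were higher, 3 of which passed the filter only through ΔTAM, and the summed level of the 6 ran from 0.684 to 1.12 RPM in WT and from 4.80 to 5.54 in ΔTAM. Of 6 markers of primordial germ cells, 4 of them also members here, 4 were higher and 0 lower (25.1 to 25.9 against 30.3 to 32.6 RPM in sum), among them *Dppa3* with a log2 fold change of 2.05. *Prdm14* and *Tfap2c*, 2 of the higher ones, already had means of 10.7 and 8.37 RPM in WT ESCs. *Prdm1* (-0.16) and *Dnd1* (-0.45) were not called and had negative log2 fold changes. Of 4 Sertoli cell markers, *Dmrt1*, which germ cells also express, was higher (0.79), and *Amh*, *Sox9* and *Gata1* had at most 7 reads in any library. The summed level of these 4 ran from 4.94 to 5.73 RPM in WT and from 8.94 to 10.0 in ΔTAM. Of 6 primitive endoderm markers 1, *Gata4*, was tested and not called, and their summed level was 0.911 to 1.13 RPM in WT and 1.31 to 1.57 in ΔTAM. *Dab2*, under the filter, had 0 to 3 reads per WT library and 4 to 10 per ΔTAM library. *Eomes* was lower among 2 tested mesoderm markers of 4 (6.67 to 7.36 RPM in sum in WT and 5.13 to 6.53 in ΔTAM). *Sox1* was lower as the only tested neuroectoderm marker of 3 (0.422 to 0.636 and 0.288 to 0.342). *Cdx2* was higher as the only tested trophoblast marker of 3 (1.49 to 1.85 and 1.50 to 2.59). The 4 fibroblast markers were all under the filter (0.136 to 0.267 RPM in sum in WT and 0.189 to 0.375 in ΔTAM), with *Lum* at 0 in the 8 libraries. The part of such cells in the results below was not tested.

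The members split in direction. Of the 33 members with a mean of at least 0.2 RPM, 8 were higher in ΔTAM and 5 were lower with an adjusted p under 0.05 (limma on log2 of RPM plus 0.04, Benjamini-Hochberg adjustment over 12635 genes), and 20 were not called. The 8 higher members were *Piwil4*, *D1Pas1*, *Brdt*, *Dazl*, *Nanos3*, *Rpl10l*, *Tex19.1* and *Tfap2c*. The 5 lower members were *Mov10l1*, *Sycp3*, *Syce1*, *Zcwpw1* and *Stag3*. Among all genes tested 21.5% were higher and 21.9% lower, against 24.2% and 15.2% of the tested members, so the number of calls is near the background and is no result about the set. *Piwil4* passed the filter only through its ΔTAM libraries. Among the 32 members with a mean past the filter in both lines, 7 were higher and 5 lower. For single members the text below says whether the libraries of the lines overlapped. The share of all tested genes without overlap is not given here, so this only describes the libraries of a member.

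Members past an absolute log2 fold change of 0.58 with an unadjusted p under 0.05, the thresholds that the study names, were 5 higher (15.2% of those tested, against 4.81% of all genes) and 4 lower (12.1%, against 6.21%). Among the 32 members past the filter in both lines, that is without *Piwil4*, 4 were higher (12.5%) and 4 lower (12.5%). The share of all genes under that same filter is not given here. The 4 higher ones include *Brdt* and *Nanos3*, with at most 30 reads in any library, so these small counts are no result about the set. The median log2 fold change of the tested members was 0.0021, against -0.0046 for all genes tested, and the median of its absolute size was 0.16, against 0.18. Positive fold changes were measured for 17 members and negative ones for 16. In bulk RNA, a different share of cells that express a gene and a different amount of RNA per cell cannot be told apart.

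**Figure D1:**
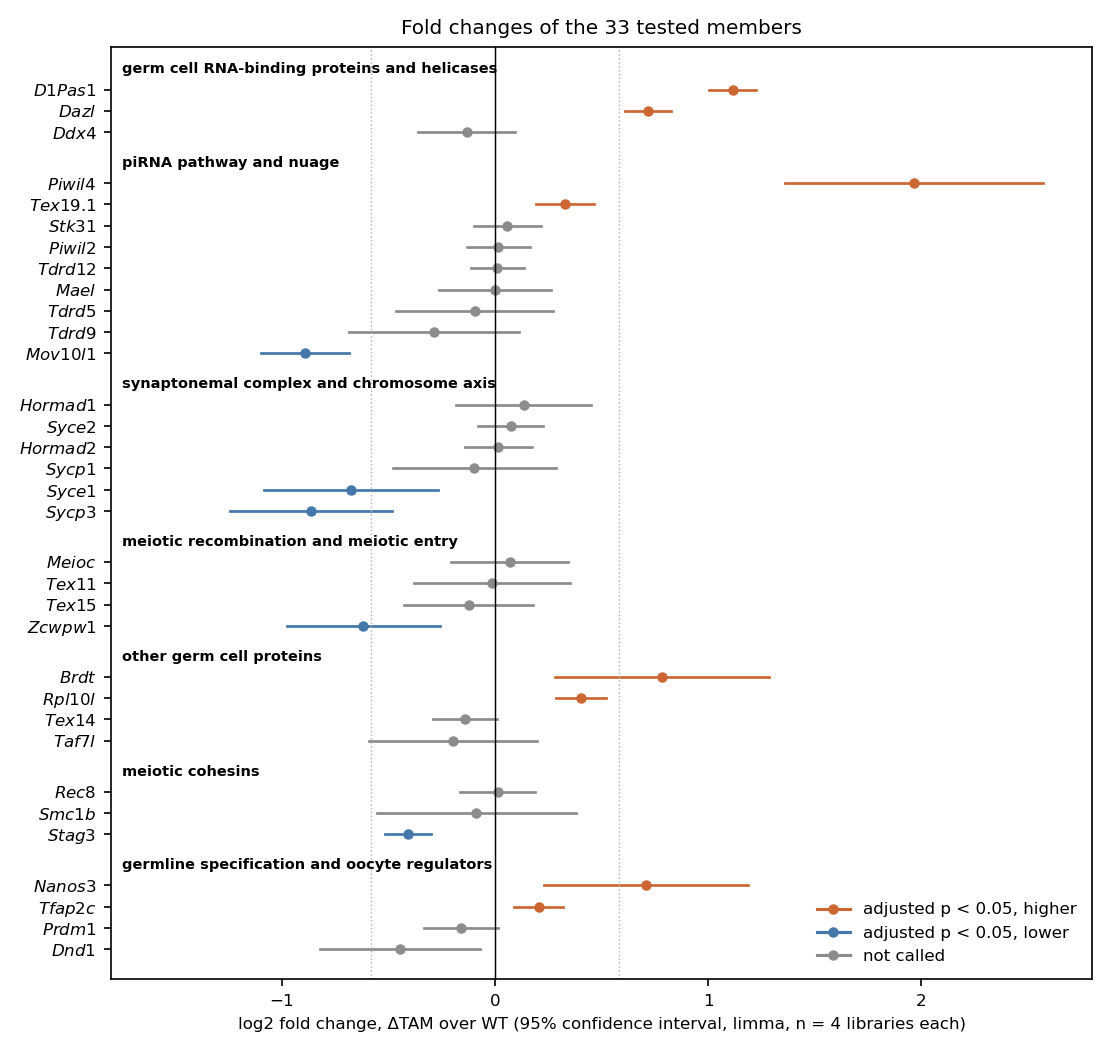
The log2 fold change of ΔTAM over WT (x axis) of the 33 tested members, grouped by role, with 95% confidence intervals from limma over 4 libraries of each line. Dotted lines mark 0.58 in either direction, colours mark calls, and the estimates run from -0.89 for Mov10l1 to 1.96 for Piwil4, which passed the filter only through ΔTAM.

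Summed over the 43 members, the level was 149.7, 149.7, 149.3 and 153.5 RPM in WT replicates 1 to 4 and 168.8, 167.2, 170.6 and 168.3 in ΔTAM replicates 1 to 4. The ΔTAM sums were above the WT sums, but a few members make up this difference and it is no rise of the whole set. The 3 members with the largest differences in mean RPM were *D1Pas1* (6.43 in WT and 13.99 in ΔTAM), *Dazl* (11.7 and 19.24) and *Rpl10l* (23.0 and 30.3). Without *Rpl10l* and *D1Pas1*, a pair left out after their rise was seen, the sum was 117.8 to 126.9 RPM in WT and 122.3 to 126.7 in ΔTAM, and the lines overlapped. Leaving out members that rose lowers the difference by construction, so this overlap says nothing of the other members.

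Levels between genes are compared per kilobase of annotated exon. *Rpl10l* was the highest member, at 22.5 RPM per kb in WT and 29.7 in ΔTAM. *Tex19.1* (6.40 and 8.05), *Dazl* (3.06 and 5.04), *D1Pas1* (2.00 and 4.35) and *Stag3* (3.40 and 2.57) followed in the same unit, in the order of the mean over both lines. In WT alone *Stag3* stood above *Dazl*, and *Syce2* (2.40), *Tfap2c* (2.27) and *Tex14* (2.04) stood above *D1Pas1*. At the other end of the tested members, *Piwil4* was at 0.0121 in WT and 0.0683 in ΔTAM, and *Brdt* at 0.0438 and 0.0820. All 43 members had at least 1 read in some library, and 38 had reads in all 8. Reads varied within a line by more than counting alone for some members. The chi-square per degree of freedom, 1 for counting alone, had a median of 1.27 over members and was highest for *Tex15* (11.3), *Rpl10l* (7.65), *Tex19.1* (6.06), *Sycp1* (5.73) and *Tex14* (4.94).

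**Figure D2:**
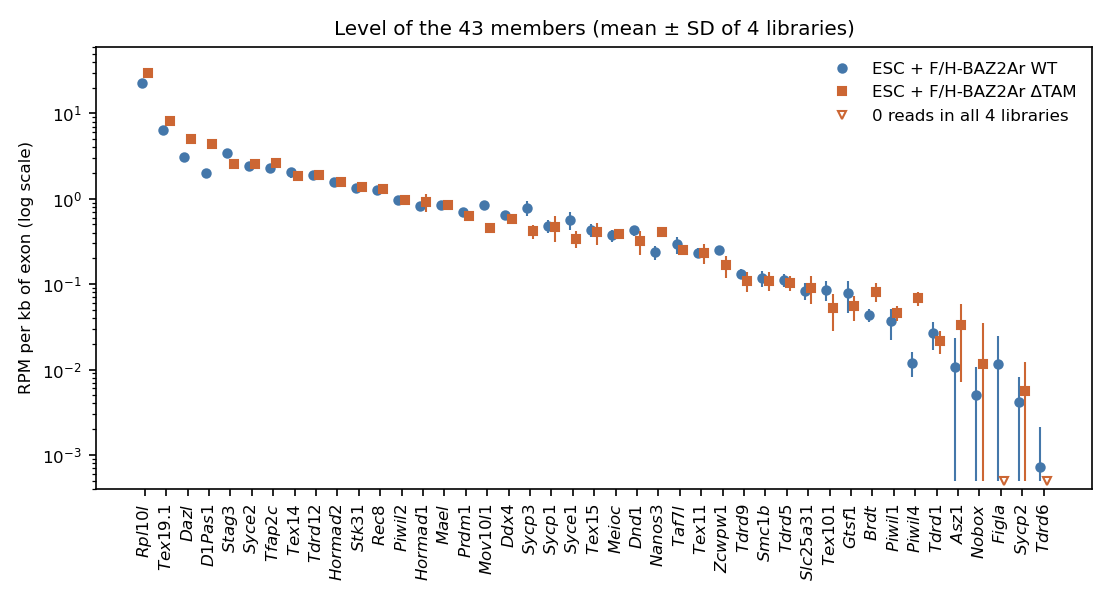
Level of each of the 43 members in RPM per kb of exon (log y axis), as the mean ± SD of 4 WT libraries (circles) and 4 ΔTAM libraries (squares), ordered by level; lower bars stop at the bottom of the axis where the SD reaches the mean. Rpl10l is highest, at 22.5 and 29.7, and open triangles mark 0 reads in all 4 libraries.

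The promoters of 3 members are shown because these had the largest called changes among members with a mean of at least 20 reads per library in the higher line. *D1Pas1* was higher, and *Mov10l1* and *Sycp3* were lower. Each window runs from 250 bases before to 50 bases after a RefSeq start on GRCm38.p6, 5′ to 3′ on the plus strand of chr1:186967166-186967465, chr15:88982744-88983043 and chr10:88459337-88459636. Capitals mark CACGTG, the E-box that MGA binds with MAX, and GCGGGA, the reverse complement of TCCCGC, a core that E2F6 binds.
D1Pas1: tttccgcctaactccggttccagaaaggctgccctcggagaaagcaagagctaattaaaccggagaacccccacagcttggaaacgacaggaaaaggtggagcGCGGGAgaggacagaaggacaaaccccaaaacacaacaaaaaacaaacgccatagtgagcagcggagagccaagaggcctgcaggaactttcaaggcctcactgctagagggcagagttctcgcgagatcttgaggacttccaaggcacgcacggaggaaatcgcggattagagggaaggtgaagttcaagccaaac
Mov10l1: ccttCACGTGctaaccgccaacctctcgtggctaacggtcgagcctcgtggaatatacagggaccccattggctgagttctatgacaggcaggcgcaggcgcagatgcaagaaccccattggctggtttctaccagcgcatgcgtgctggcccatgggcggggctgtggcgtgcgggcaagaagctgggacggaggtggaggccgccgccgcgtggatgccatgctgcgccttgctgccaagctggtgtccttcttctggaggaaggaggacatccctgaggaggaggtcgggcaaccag
Sycp3: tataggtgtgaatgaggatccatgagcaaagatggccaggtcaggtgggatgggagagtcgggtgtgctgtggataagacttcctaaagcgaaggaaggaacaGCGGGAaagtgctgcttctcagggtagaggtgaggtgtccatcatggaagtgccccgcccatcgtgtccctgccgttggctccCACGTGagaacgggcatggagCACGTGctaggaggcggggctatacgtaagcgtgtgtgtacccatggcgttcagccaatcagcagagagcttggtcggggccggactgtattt

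The *D1Pas1* window holds GCGGGA 147 bases before the start and no CACGTG. The *Mov10l1* window holds CACGTG 246 bases before the start. The *Sycp3* window holds CACGTG 64 and 43 bases before the start and GCGGGA 147 bases before it. RefSeq windows were at hand for 37 of the 43 members. CACGTG was present in a window of 15 of the 37 members (40.5%), against 8.09% of 27025 genes with a window and 12.2% of the 9439 of these that were tested here. TCCCGC on either strand was present for 16 members (43.2%), against 22.0% and 41.1%. Both motifs were present for 8 members (21.6%), against 2.65% and 5.41%. These 8 were *Ddx4*, *Mael*, *Sycp1*, *Sycp3*, *Syce2*, *Slc25a31*, *Hormad1* and *Stag3*. CACGTG reads the same on both strands, and it can share at most 1 base with a neighbouring TCCCGC or GCGGGA.

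Members with the motifs were found among all kinds of call. CACGTG was present for 1 of 7 higher members with a window, 3 of 5 lower members, 8 of 16 members that were not called and 3 of 9 that were not tested. Both motifs were present for 0, 2, 5 and 1 of these. The 1 higher member with CACGTG was *Brdt*, and the 2 lower members with both motifs were *Sycp3* and *Stag3*. The median number of CpG dinucleotides in a member's window was 19, against 8 for all genes with a window and 22 for those tested here. These matches are a description of the letters and say nothing of binding.

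The counts in each role group are small and stand beside the same background, 21.5% of all tested genes higher and 21.9% lower, so none of them is a result about its group. Among germ cell RNA-binding proteins and helicases, 2 of 3 members were higher and 0 lower. *D1Pas1* encodes a DEAD-box helicase of male germ cells and is an autosomal, intronless relative of X-linked *Ddx3x*. Its level was 6.38, 6.31, 6.36 and 6.69 RPM in WT replicates 1 to 4 and 13.4, 13.9, 14.8 and 13.9 in ΔTAM replicates 1 to 4. The libraries of a line lay close together and the lines did not overlap. The means were 6.43 ± 0.170 and 13.99 ± 0.561 RPM (SD, n = 4 each), 2.17 times higher, with a log2 fold change of 1.11 (SE, the standard error, 0.052, limma adjusted p = 4.9e-13). Leaving out any 1 library kept the estimate between 1.09 and 1.13.

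Because *D1Pas1* is a close relative of a gene that ESCs express, shared sequence was checked. No window of 100 bases of *D1Pas1* was found, on the same strand, in an annotated transcript of another gene. Only exact matches were searched, so reads with mismatches could still be shared, and the handling of reads with several matches is not stated. *Ddx3x* itself had means of 93.9 RPM in WT and 104.9 in ΔTAM, a log2 fold change of 0.16 (limma adjusted p = 4.8e-04). The part of shared reads in the values of *D1Pas1* was not tested. On the opposite strand, the antisense gene *Gm37912* shares 188 exon bases with *D1Pas1* and had 14.5 reads per library on average, against 513.1 for *D1Pas1*. It was also higher, with a log2 fold change of 0.98 (limma adjusted p = 0.0054), and it passed the filter only through ΔTAM. Whether the counting used the strand is not stated.

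*Dazl* encodes an RNA-binding protein that controls translation in germ cells. It had 524, 624, 564 and 650 reads in WT replicates 1 to 4 and 903, 822, 1014 and 1115 reads in ΔTAM replicates 1 to 4. In RPM, WT libraries ran from 10.5 to 12.6 and ΔTAM libraries, all of them higher, from 18.8 to 20.0. This gave a log2 fold change of 0.72 (SE 0.052, limma adjusted p = 5.2e-10). *Ddx4*, the VASA helicase that marks germ cells, had overlapping lines, with 1.93 ± 0.190 RPM in WT and 1.75 ± 0.103 in ΔTAM (SD, n = 4 each). Its 95% confidence interval of the log2 fold change ran from -0.36 to 0.09.

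In the piRNA pathway and the nuage, 9 of 14 members were tested, of which 2 were higher, 1 was lower and 6 were not called. *Piwil4* encodes MIWI2, the nuclear Piwi protein that directs DNA methylation of transposons in fetal male germ cells. It had 4, 3, 4 and 2 reads in WT replicates 1 to 4 and 20, 13, 17 and 24 reads in ΔTAM replicates 1 to 4. The ΔTAM libraries held more reads than the WT libraries, at means of 0.0649 ± 0.0205 and 0.368 ± 0.0709 RPM in WT and ΔTAM (SD, n = 4 each). Since the WT mean is under the filter, *Piwil4* entered the test only through the line in which it is high, so its estimate (a log2 fold change of 1.96) is a description and its call carries no weight. Without ΔTAM replicate 1 or replicate 4 its mean fell under the filter and it was not tested, and in the other 6 fits that left out a library the log2 fold change was 1.83 to 2.05. Its size depends on the pseudocount and ran from 1.09 to 2.37 over the other settings.

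*Mov10l1*, the helicase that starts piRNA production, moved the other way. Its level was 3.50, 3.34, 3.80 and 3.39 RPM in WT replicates 1 to 4 and 2.01, 1.89, 1.58 and 2.03 in ΔTAM replicates 1 to 4. Every ΔTAM library lay below every WT library. In log2 terms the change was -0.89 (SE 0.10, limma adjusted p = 2.8e-07), on 172 to 185 reads per WT library and 83 to 118 per ΔTAM library. *Tex19.1*, which guards germ cells and placenta against retrotransposons, had the highest level per kb of exon in this group. It was at 11.6, 11.3, 13.2 and 11.8 RPM in WT replicates 1 to 4 and at 13.4, 15.1, 17.3 and 14.5 in ΔTAM replicates 1 to 4. The lines came close, with WT replicate 3 just under ΔTAM replicate 1, and the log2 fold change was 0.33 (SE 0.065, limma adjusted p = 3.5e-04).

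The other tested piRNA members had log2 fold changes between -0.28 and 0.06. *Piwil2*, the cytoplasmic Piwi protein MILI, had 5.13 ± 0.352 and 5.18 ± 0.228 RPM (SD, n = 4 each), with a 95% confidence interval of the log2 fold change from -0.13 to 0.16. *Tdrd12* (interval -0.11 to 0.14) and *Stk31* (interval -0.10 to 0.21), both proteins with Tudor domains, were measured about as closely. *Mael* (interval -0.26 to 0.26), *Tdrd5* (interval -0.46 to 0.27) and *Tdrd9* (interval -0.68 to 0.11) had fewer reads, between 23 and 81 per library, and wider intervals.

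Of the 7 members of the synaptonemal complex and the chromosome axis, 6 were tested, of which 0 were higher and 2 lower, again with 21.9% of all genes lower. *Sycp3* encodes a lateral element protein on which the synaptonemal complex is built. Its level was 0.845, 1.18, 1.15 and 0.814 RPM in WT replicates 1 to 4 and 0.398, 0.593, 0.507 and 0.620 in ΔTAM replicates 1 to 4. All ΔTAM libraries were below the WT libraries. *Sycp3* thus had a log2 fold change of -0.86 (SE 0.18, limma adjusted p = 6.1e-04), on 42 to 61 reads per WT library and 18 to 36 per ΔTAM library. *Chpt1* shares 660 of the 1264 exon bases of *Sycp3* on the opposite strand and had 171.6 reads per library on average, against 38.5 for *Sycp3*. Without knowing whether the counting used the strand, *Sycp3* reads cannot be told apart from *Chpt1* reads in these bases, so the level and change of *Sycp3* are uncertain. For *Chpt1* the log2 fold change was 0.20 (limma adjusted p = 0.078).

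*Syce1*, a central element protein, was at 0.664, 0.777, 1.11 and 0.736 RPM in WT replicates 1 to 4 and at 0.398, 0.411, 0.582 and 0.603 in ΔTAM replicates 1 to 4. WT replicate 3 was the highest library and the lines did not overlap. The log2 fold change was -0.67 (SE 0.20, limma adjusted p = 0.0082). Leaving out any 1 library kept the estimate between -0.77 and -0.53. *Syce2*, another central element protein, had the highest level per kb of exon in the group. It was at 4.87, 4.84, 4.78 and 4.40 RPM in WT replicates 1 to 4 and at 5.04, 5.07, 5.37 and 4.44 in ΔTAM replicates 1 to 4. Its replicate 4 was the lowest library of each line, the lines overlapped, and the 95% confidence interval of the log2 fold change was -0.08 to 0.23.

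The HORMA-domain axis proteins *Hormad1* (interval -0.18 to 0.45) and *Hormad2* (interval -0.14 to 0.17) were not called. Of the 100-base windows of *Hormad1*, 9.36% also occur on the same strand in *Gm15529*. *Sycp1*, the transverse filament protein, was not called either, with a log2 fold change of -0.10 (interval -0.48 to 0.29). Its level spread widely within ΔTAM, from 0.982 RPM in replicate 2 to 2.30 in replicate 1. Without ΔTAM replicate 2 its log2 fold change was 0.13.

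All 3 meiotic cohesin members were tested. *Stag3*, the meiosis-specific STAG subunit, was well above the others at 19.8, 19.0, 18.7 and 20.4 RPM in WT replicates 1 to 4. In ΔTAM replicates 1 to 4 it was at 15.9, 13.3, 15.2 and 14.6. The lines did not overlap, and the log2 fold change was -0.41 (SE 0.052, limma adjusted p = 1.9e-06). The kleisin subunit *Rec8* had 3.74 ± 0.284 and 3.78 ± 0.325 RPM (SD, n = 4 each), with a 95% confidence interval of the log2 fold change from -0.16 to 0.19. *Smc1b*, the meiotic SMC subunit, had 16 to 29 reads per library and an interval of -0.55 to 0.38.

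Among the 4 members of meiotic recombination and meiotic entry, 1 was lower and 3 were not called. *Zcwpw1* encodes a reader of the histone marks that PRDM9 leaves at recombination hotspots. It was at 1.23, 1.53, 1.33 and 1.63 RPM in WT replicates 1 to 4 and at 0.686, 1.10, 0.732 and 1.26 in ΔTAM replicates 1 to 4. ΔTAM replicate 4 lay above WT replicate 1, so the lines overlapped. The log2 fold change was -0.62 (SE 0.17, limma adjusted p = 0.0062). Leaving out any 1 library kept the estimate between -0.77 and -0.49. *Tex15*, which had the highest level per kb of exon in this group, was at 3.98, 3.63, 3.80 and 5.23 RPM in WT replicates 1 to 4. In ΔTAM replicates 1 to 4 it was at 4.93, 2.85, 3.00 and 4.82, so that its spread within ΔTAM exceeded the difference between the lines (interval of the log2 fold change -0.43 to 0.18). *Tex11*, a protein of meiotic crossovers, and *Meioc*, which works with the RNA helicase YTHDC2 at meiotic entry, had intervals of -0.38 to 0.35 and -0.20 to 0.34.

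**Figure D3:**
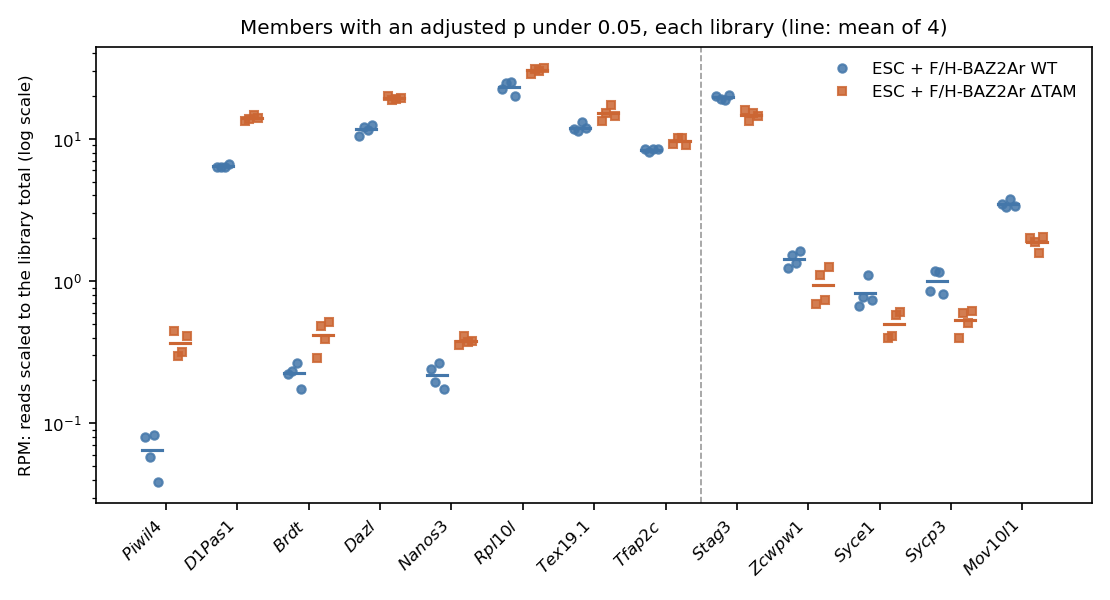
RPM (log y axis) of the 13 called members in each of 4 WT libraries (circles) and 4 ΔTAM libraries (squares), with a line at each mean; members higher in ΔTAM stand left of the dashed line and lower ones right of it. The lines overlap for Zcwpw1, and Piwil4, which passed the filter only through ΔTAM, has 2 to 4 reads per WT library and 13 to 24 per ΔTAM library.

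Of 6 members with roles in germline specification or oocyte gene regulation, 4 were tested, of which 2 were higher and 0 lower. *Tfap2c*, a transcription factor of primordial germ cells that ESCs also express, was at 8.43, 8.10, 8.50 and 8.45 RPM in WT replicates 1 to 4. In ΔTAM replicates 1 to 4 it was at 9.25, 10.1, 10.2 and 9.07. The difference was small and the lines did not overlap (log2 fold change 0.20, SE 0.056, limma adjusted p = 0.0053). *Nanos3*, an RNA-binding protein that keeps primordial germ cells alive, had 12, 10, 13 and 9 reads in WT replicates 1 to 4 and 16, 18, 20 and 22 reads in ΔTAM replicates 1 to 4. All ΔTAM libraries were higher, with a log2 fold change of 0.71 (SE 0.23, limma adjusted p = 0.017). With no filter on low genes its adjusted p was 0.080 from limma.

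*Prdm1* (BLIMP1), the repressor that starts germ cell fate, was not called (log2 fold change -0.16, interval -0.33 to 0.02). *Dnd1*, an RNA-binding partner of NANOS proteins, lay at the threshold with a log2 fold change of -0.45 and an adjusted p of 0.052 from limma. It was called in 5 alternatives, including that without ΔTAM replicate 2 (-0.63, limma adjusted p = 0.0049). *Wdr55* shares 140 exon bases with *Dnd1* on the opposite strand, had 239.6 reads per library on average against 44.9 for *Dnd1*, and had a log2 fold change of -0.14. The values of *Dnd1* are uncertain for the same reason as those of *Sycp3*.

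Among 6 other germ cell proteins, 4 were tested, of which 2 were higher and 0 lower. *Rpl10l* encodes a ribosomal protein that takes the place of X-linked RPL10 in male meiosis. It was at 22.4, 24.7, 25.1 and 19.9 RPM in WT replicates 1 to 4 and at 28.6, 31.0, 30.1 and 31.6 in ΔTAM replicates 1 to 4. All ΔTAM libraries lay above the WT libraries, with a log2 fold change of 0.40 (SE 0.057, limma adjusted p = 6.2e-06). *Rpl10*, of which *Rpl10l* is a copy, had a log2 fold change of 0.10 (limma adjusted p = 0.053), and no 100-base window of *Rpl10l* occurs on the same strand in an annotated transcript of another gene. Reads with mismatches could still be shared, and the handling of reads with several matches is not stated.

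*Brdt*, the testis-specific bromodomain protein, had 11, 12, 13 and 9 reads in WT replicates 1 to 4 and 13, 21, 21 and 30 reads in ΔTAM replicates 1 to 4. In RPM the lines did not overlap, at 0.174 to 0.267 in WT and 0.288 to 0.517 in ΔTAM. The log2 fold change was 0.78 (SE 0.24, limma adjusted p = 0.012). Its adjusted p was 0.051 without ΔTAM replicate 4 and 0.053 with no filter. *Tex14*, a protein of the bridges between germ cells, had a log2 fold change of -0.14 (interval -0.29 to 0.01), and *Taf7l*, a germ cell subunit of the general transcription factor TFIID, one of -0.19 (interval -0.59 to 0.20). *Tex14* was called without WT replicate 3 (-0.21, limma adjusted p = 0.022).

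The 10 members under the filter had at most 14 reads in any library, and the lines overlapped for all 10. The piRNA members *Piwil1*, *Tdrd1*, *Asz1*, *Gtsf1* and *Tdrd6* had 32, 29, 6, 22 and 1 reads in the 4 WT libraries together and 41, 24, 19, 15 and 0 in the 4 ΔTAM libraries. *Slc25a31*, the ADP/ATP carrier of germ cells, had 36 and 38 reads, *Tex101* had 29 and 17, and *Sycp2*, the partner of SYCP3 in the axis, had 5 and 7. The oocyte transcription factors *Nobox* and *Figla* had 2 and 5 and 2 and 0 reads. A count of 0, as for *Tdrd6* and *Figla* in ΔTAM, allows up to 3 reads. By a two-sided exact permutation test over the 8 libraries, their unadjusted p ran from 0.114 to 1.

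Other genes of the same pathways, from lists of names that do not include the members, were read from the same fit. Of 36 further meiotic genes 33 were found and 20 tested, of which 2 were higher (10%, against 21.5% of all genes tested) and 10 lower (50%, against 21.9%), with a median log2 fold change of -0.29. Of the 19 past the filter in both lines, 2 were higher and 9 lower. *Stra8*, the retinoic acid target that opens meiotic entry, had the largest change. It was at 1.87, 2.31, 2.20 and 2.36 RPM in WT replicates 1 to 4 and at 14.2, 12.3, 13.5 and 12.3 in ΔTAM replicates 1 to 4, a log2 fold change of 2.56 (SE 0.079, limma adjusted p = 5.3e-16). The 4 next in size were lower. They were *Cntd1* (-1.11), a crossover factor that passed the filter only through its WT libraries, *Shoc1* (-0.88), which works with crossover intermediates, *Iho1* (-0.77), needed to form meiotic breaks, and *Dmc1* (-0.74), the meiotic recombinase, all on the log2 scale.

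**Figure D4:**
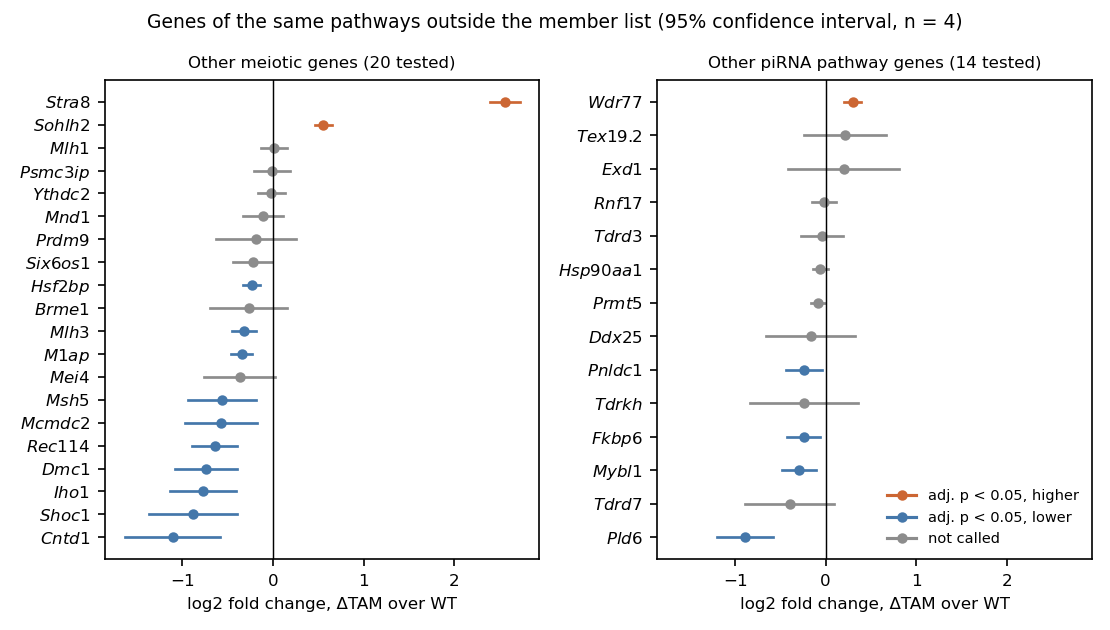
The log2 fold change of ΔTAM over WT (x axis) with 95% confidence intervals from limma (4 libraries each) for the tested genes of 2 further lists, 20 meiotic genes on the left and 14 piRNA pathway genes on the right. Colours mark calls; Stra8 stands far to the right at 2.56 while 10 meiotic genes are lower.

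Of 17 further piRNA pathway genes 14 were tested, with 1 higher (7.14%) and 4 lower (28.6%), and *Pld6*, the mitochondrial nuclease Zucchini of piRNA processing, was the only called gene past 0.58 (-0.89). The subunits of the MGA- and E2F6-containing Polycomb complex were all tested, and 4 of 15 were higher (26.7%) and 1 lower (6.67%), with 0 past 0.58. Of 17 genes of DNA and H3K9 methylation, 7 were higher (41.2%) and 4 lower (23.5%), against the same 21.5% and 21.9% of all genes. *Dnmt3b*, a de novo DNA methyltransferase, was higher (log2 fold change 0.72), while its cofactor *Dnmt3l* was lower (-0.74). Of 12 genes of spermatids 3 were tested, with 0 higher and 2 lower, among them *Tekt1* (-0.64), a tektin of the axoneme. Of 13 oocyte genes 2 were tested and 1 was higher, *Zp3* (0.80) of the egg coat. No list was tested as a set.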

How the data were processed

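PolyA RNA was sequenced with a stranded kit in 8 libraries. After removal of ribosomal RNA reads (SortMeRNA) and trimming (Trimmomatic, 0.36 in the submitters' processing notes), the authors aligned to mm10 with STAR, counted exon reads with their own pipeline and deposited 1 RPKM column per library. The annotation release, use of strand and treatment of reads with several matches are not given in the sources used here. RPKM were multiplied by genomic span in kb to give RPM (reads per 1000000 of the library total), and whole reads were recovered from their steps, with at least 99.6% of values above 0 within 0.1 of a whole read. Repeated symbols were merged from 51288 entries to 50903 genes.

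Genes averaging at least 0.2 RPM were tested with limma 3.58.1 (R 4.3.3) on log2(RPM + 0.04), a scale that understates changes of low genes, with a mean-variance trend, no covariates and Benjamini-Hochberg adjustment over 12635 genes. The fit was tested on simulated data with a dispersion (spread beyond counting) of 0.001. Some members, such as *Tex15*, spread more than that within a line, so the simulation does not speak for the fit of these. The members, lists and motifs were chosen with earlier results of these data known. Values in every library are given for called members past 0.58 and for the member with the highest level per kb of exon in each role group, and other genes of a list are named if called and past 0.58, at most 5 by size. Exon lengths, overlaps and the search for shared 100-base windows (transcripts on their own strand) came from GENCODE vM21, in which 42 of the 43 members had the same coordinates, and promoters from RefSeq. Alternatives changed the pseudocount, the filter, the scale, the library scaling, the trend, the test (limma voom on the recovered reads), the replicate block, the libraries and the merging of repeated symbols.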

Additional observations from a re-analysis of the deposited data

Results flagged for a closer look

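In 66 groups of 4 libraries (33 tested members in each line), 3 had a library whose gap to the nearest other exceeded Dixon's 95% critical value, where chance gives about 1 group in 20. *Mael* was at 1.80 RPM in ΔTAM replicate 2, against 1.33 to 1.39 in the other ΔTAM libraries. *Tdrd12* was at 8.88 RPM in ΔTAM replicate 2, against 7.96 to 8.01. *Meioc* was at 2.17 RPM in ΔTAM replicate 1, against 1.64 to 1.73. None of these 3 members was called, with or without the library that stood apart.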

How the results depend on the processing

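The call and direction of *D1Pas1*, *Dazl*, *Rpl10l*, *Tex19.1*, *Tfap2c* and *Stag3* held in every alternative tried. Those of *Mov10l1*, *Sycp3*, *Syce1* and *Zcwpw1* held wherever they were tested, and stricter filters left them untested. With a filter of 1 RPM, 22 members were tested, with 5 higher and 3 lower. With log2(RPKM + 0.1) and a filter of 0.1 RPKM, 10 members were tested, with 5 higher and 1 lower, and 1792 of all genes were higher and 1437 lower, against 2719 and 2762; fewer genes are tested there. With each library left out in turn, 6 to 8 members were higher and 5 to 6 lower, and 2375 to 2667 genes were higher and 2390 to 2772 lower. Whether the replicate numbers pair the libraries stayed undecided. Same-numbered libraries correlated at 0.24, 0.22, 0.19 and 0.06 in their deviations from the group means, and not every library correlated best with its own number. Libraries with unlike numbers correlated from -0.39 (WT replicate 3 with ΔTAM replicate 1) to 0.39 (WT replicate 4 with ΔTAM replicate 1). With the replicate block, 2867 genes were higher and 2951 lower, and 8 members were higher and 6 lower, with *Dnd1* added. Signs reversed only for members that were not called. *Mael* was at -0.011 with voom, and *Tex11* and *Tdrd12* were at 0.048 and -0.011 with quantile normalization. With a library left out, the log2 fold change ran from -0.094 to 0.048 for *Mael*, from -0.27 to 0.13 for *Sycp1*, from -0.17 to 0.084 for *Tex11*, from -0.25 to 0.011 for *Tex15*, from -0.21 to 0.0029 for *Tdrd5*, from -0.026 to 0.040 for *Tdrd12*, from -0.029 to 0.046 for *Piwil2*, from -0.016 to 0.065 for *Hormad2*, from -0.25 to 0.075 for *Smc1b*, from -0.037 to 0.063 for *Rec8* and from -0.053 to 0.14 for *Meioc*. The cause was not tested. Depth limits what can be said of the 10 members under the filter and of *Piwil4*, *Brdt* and *Nanos3*, whose values rest on at most 30 reads per library.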
